A study of Mus musculus with 12 samples.

Results

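The genes described here make the egg coat and the proteins that an oocyte secretes: the zona pellucida genes Zp1, Zp2 and Zp3, the growth factor genes Gdf9 and Bmp15, and the oocyte-secreted protein genes Oosp1, Oosp2 and Oosp3. They were taken as a list of names, drawn up with earlier results of these data known, and all 8 were found among the 17012 genes that the 2 expression tables of the study share. The study asked what Eif1ad3, a gene transcribed around zygotic genome activation, does in mouse 2-cell embryos, by lowering it and by recovering RNA with a tagged copy of its protein.

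The zona pellucida is the glycoprotein shell that surrounds the egg. ZP1, ZP2 and ZP3 are its secreted subunits in the mouse, and their genes are transcribed in the growing oocyte. GDF9 and BMP15 are members of the TGF-beta family that the oocyte secretes toward the surrounding granulosa and cumulus cells, which answer through receptor kinases and SMAD proteins. The Oosp genes encode small secreted proteins made by oocytes. In all of these genes the mRNA present after fertilization is largely inherited from the egg, and such maternal mRNAs are cleared while the embryo's own genome becomes active.

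The libraries used form 4 groups, each with a replicate A and a replicate B (n = 2). The knockdown experiment held control embryos of genotype WT and embryos of genotype Eif1ad3_KD, from 1-cell CF1 embryos according to the series' design text. That text names RfxCas13d mRNA alone for the control and the same mRNA plus a guide RNA for the knockdown, whereas the samples' treatment text names morpholino oligos and Cas13d protein given to oocytes. Age is not stated. The immunoprecipitation experiment held pulldowns with an anti-His antibody and pulldowns with IgG, the negative control. Both carry the genotype Eif1ad3_OE, for embryos that received Eif1ad3-6xHis mRNA at 200 ng/uL as zygotes, and 200 cells per replicate are stated. The pulldown libraries therefore come from pools of embryos, and the number of embryos in a control or knockdown library is not stated. The labels do not say whether A and B are separate collections, so p-values measure only the spread between these libraries.

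The values are CPM, the usual depth-scaled read count, in which a gene's reads are taken relative to all reads of its library. Libraries of the knockdown experiment held 18173916 to 27902514 reads in all, and pulldowns 4678563 to 8364126. A floor of 3 reads lay between 0.108 and 0.641 CPM over the 8 libraries; it covers counting error only, and PCR copies are not independent molecules. Eif1ad3 itself was at 839 and 663 CPM in controls A and B and at 277 and 377 CPM in knockdowns A and B, in the direction the labels give. In the pulldowns it was at 80.3 and 83.6 CPM with His and at 1.35 and 30.8 CPM with IgG. Of 14 markers of the 2-cell stage, 13 were listed. Their summed level was 5001 to 5452 CPM in the controls, 3952 to 4057 CPM in the knockdown libraries, 1693 to 1801 CPM in the His pulldowns and 1080 to 1164 CPM in the IgG pulldowns. None of the 13 was at 0 in a His library and 4 were at 0 in each IgG library. Single markers did not all follow these sums. Obox3 was at 1385 and 1298 CPM in controls A and B and at 40.8 and 29.8 CPM in His A and B. Zfp352 was at 811 and 871 CPM and at 16.5 and 36.5 CPM. Tcstv3 was at 915 and 761 CPM and at 397 and 423 CPM. Tcstv1 was at 583 and 420 CPM and at 664 and 621 CPM. Whether the embryos of the 2 experiments matched in stage was not tested. The 2 tables were normalized separately. Of 18 cumulus and granulosa markers, 7 were listed in the knockdown table. Their sums were 37.5 and 35.0 CPM in controls A and B and 28.7 and 22.3 CPM in knockdowns A and B. Amhr2, the receptor of anti-Mullerian hormone, had the highest level of the 7 in each library. It was at 28.5 and 22.0 CPM in the controls and at 13.5 and 14.4 CPM in the knockdown libraries, without overlap. Cyp19a1, the aromatase gene, was at 0.550 to 11.1 CPM, and the other 5 were at 4.18 CPM or lower.

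Promoter sequence was available for 4 of the 8 genes. It is shown for 3, 1 from each family, whose knockdown and control libraries did not overlap. FIGLA, the oocyte factor that switches on the zona genes, binds E-boxes, with the letters CANNTG, which read the same on both strands. The sequences are the 250 bases before the start of each gene in RefSeq's GRCm38.p6 annotation, read in the direction of the gene, with E-box matches in capitals. They lie at chr5:135979855-135980104 on the plus strand for Zp3, at chrX:6320725-6320974 on the minus strand for Bmp15 and at chr19:11691052-11691301 on the minus strand for Oosp1.
Zp3: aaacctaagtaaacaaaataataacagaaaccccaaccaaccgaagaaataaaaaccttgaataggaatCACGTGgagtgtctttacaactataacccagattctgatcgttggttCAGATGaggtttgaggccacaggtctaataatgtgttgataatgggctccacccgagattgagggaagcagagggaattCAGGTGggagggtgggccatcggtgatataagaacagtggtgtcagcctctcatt
Bmp15: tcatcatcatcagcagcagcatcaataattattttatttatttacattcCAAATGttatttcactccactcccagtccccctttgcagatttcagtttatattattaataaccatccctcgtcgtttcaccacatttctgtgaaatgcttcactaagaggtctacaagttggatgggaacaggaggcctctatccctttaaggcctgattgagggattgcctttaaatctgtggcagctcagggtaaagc
Oosp1: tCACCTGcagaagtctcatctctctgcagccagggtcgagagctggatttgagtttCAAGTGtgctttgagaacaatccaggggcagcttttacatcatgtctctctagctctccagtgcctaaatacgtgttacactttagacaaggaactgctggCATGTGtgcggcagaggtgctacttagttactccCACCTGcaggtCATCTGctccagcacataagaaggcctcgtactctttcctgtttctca

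Zp3 held 3 matches, beginning 181, 134 and 55 bases before its start, and the first of them has the letters CACGTG. Oosp1 held 5, and Bmp15 and Oosp2 held 1 each. An E-box was present in 66.2% of all 32851 promoter windows of this length, with a median of 1. Bmp15 also held 1 match to the element bound by the oocyte homeobox factor NOBOX, searched as TAATTA or TAATTG on both strands, which 11.3% of the windows held; the other 3 genes held none. These matches describe the letters only. Oosp2, Oosp1 and Oosp3 are consecutive protein-coding genes on chromosome 19 in that annotation, so the Oosp genes form a cluster.

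**Figure D1:**
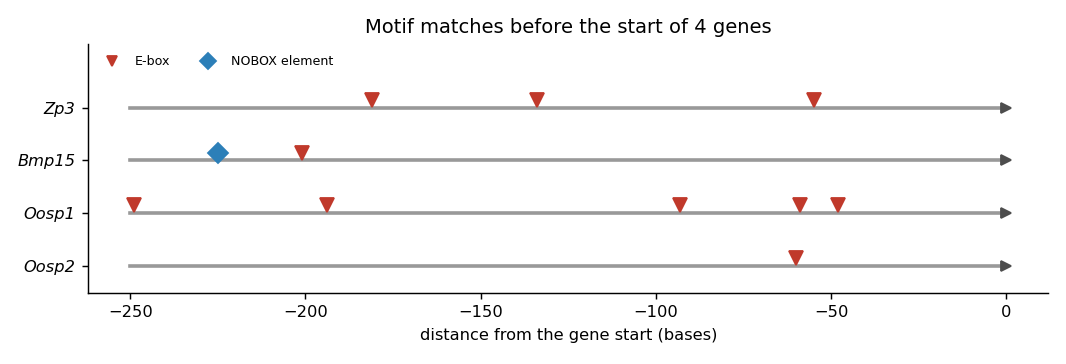
Positions of E-box matches (triangles) and of the NOBOX element (diamond) in the 250 bases before the start of the 4 genes with a promoter sequence; the horizontal axis is the distance from the gene start in bases, and arrowheads mark the start. Oosp1 holds 5 E-boxes and Zp3 holds 3.

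In knockdown against control embryos, the 3 zona genes had lower means and Bmp15 and the 3 Oosp genes had higher means, while Gdf9 lay far above the controls in one knockdown library and far below them in the other. None of these differences passed. Limma was run, two-sided, on log2(CPM + 1) of every gene reaching 1 CPM in 2 or more libraries, with Benjamini-Hochberg adjustment over all of them. Fold changes are on that scale and come out too small for genes with low values. In bulk samples, fewer cells of a type and less RNA per cell cannot be told apart. All 8 genes entered the test through both groups. At an adjusted p under 0.05, limma called 0 of 8 and 0 of all 13332 genes (0%), of which 726 had an unadjusted p under 0.05. On whole reads recovered from the CPM, edgeR called 0 genes (758 unadjusted) and DESeq2 called 15 (0.113%), none of them among the 8. With 2 libraries against 2, an exact permutation test of a single gene cannot give a p below 0.333.

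Zp3, the gene of the subunit that pairs with ZP2 in zona filaments, was at 119 and 116 CPM in controls A and B and at 75.0 and 60.6 CPM in knockdowns A and B. Both knockdown libraries lay below both controls, at means of 67.8 ± 10.2 and 117 ± 1.93 CPM (SD, n = 2 each). The log2 fold change was -0.79 with a standard error (SE) of 0.35 and an adjusted p of 0.859 by limma. Zp1, whose protein cross-links zona filaments, was at 58.3 and 41.1 CPM in the controls and at 44.4 and 13.0 CPM in the knockdown libraries. Its knockdown A value lay between the controls, and only knockdown B was below them. Zp2, which encodes the subunit that sperm bind, was at 175 and 154 CPM in controls and at 172 and 61.0 CPM in knockdowns A and B, the same arrangement as Zp1. The log2 fold changes were -0.99 (SE 0.59) for Zp1 and -0.67 (SE 0.49) for Zp2, with adjusted p of 0.859 and 0.875 by limma. Without knockdown A, the log2 fold change by limma was -1.83 for Zp1 (adjusted p 0.00507), -1.41 for Zp2 (0.00221) and -0.94 for Zp3 (0.0258). Without knockdown B none of the 3 passed by limma, at -0.14 for Zp1 (adjusted p 0.888), 0.068 for Zp2 (0.923) and -0.64 for Zp3 (0.225). Without knockdown A, 1894 of all genes passed, as did 414 without knockdown B, and in such fits the lone knockdown library is assumed to vary like the controls.

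Gdf9 was at 345 and 283 CPM in controls A and B. In knockdown A it was at 1005 CPM, and in knockdown B at 91.2 CPM (28048 and 1657 reads), so the knockdown replicates differed 11.0-fold, with 1 on each side of the controls. Its log2 fold change of -0.04 (SE 0.91, adjusted p 0.998 by limma) is the average of those opposite values, and with edgeR and DESeq2, which average reads, it was 0.71 and 0.69. Without knockdown B the log2 fold change was 1.68, and without knockdown A it was -1.77. An arrangement with knockdown A above both controls and knockdown B below both was found for 19.1% of all genes tested, and among the 8 genes for Gdf9 alone. The annotation of Gdf9 overlaps that of Uqcrq, a respiratory complex gene, and the strand setting of the counting is not given in the sources used here. Uqcrq was at 287 and 312 CPM in the controls and at 182 and 228 CPM in knockdowns A and B, so it did not share the split of Gdf9.

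Bmp15 was at 845 and 728 CPM in the controls and at 2019 and 1055 CPM in knockdowns A and B. Both knockdown libraries lay above both controls, at a mean of 1537 ± 682 CPM against 787 ± 82.6 CPM (SD, n = 2 each). The log2 fold change was 0.90 (SE 0.38, adjusted p 0.859 by limma). Without knockdown B it was 1.36, and without knockdown A it was 0.43.

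Oosp3 had the smallest p of the 8 genes, unadjusted at 0.0154 by limma, which placed it at rank 168 of the 13332. It was at 417 and 319 CPM in controls A and B and at 661 and 771 CPM in knockdowns A and B, with no overlap. Its mean was 716 ± 77.7 CPM against 368 ± 69.0 CPM (SD, n = 2 each), a log2 fold change of 0.97 (SE 0.32) with an adjusted p of 0.859 by limma. The annotation of Oosp3 overlaps that of Gm19224, for which no values were found, so shared reads were not examined. Oosp3 was the only one of the 8 genes in which knockdown B was above knockdown A. Its log2 fold change was 1.08 without knockdown A, 0.86 without knockdown B, 1.16 without control A and 0.77 without control B. Oosp1 was at 2303 and 1898 CPM in the controls and at 3075 and 2475 CPM in the knockdown libraries, again without overlap, with a log2 fold change of 0.40 (SE 0.31, adjusted p 0.881 by limma). That value was 0.24 without knockdown A and 0.26 without control B, and Oosp1 did not pass in any alternative run. Oosp2 was at 57.5 and 47.1 CPM in the controls, at 218 CPM in knockdown A and at 49.4 CPM in knockdown B. Knockdown A alone carried its log2 fold change of 0.99 (SE 0.64, adjusted p 0.859 by limma). The fold change was 2.05 without knockdown B and -0.07 without knockdown A.

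Both libraries of a group lay above or below both of the other for 4 of the 8 genes. The knockdown libraries were higher for Bmp15, Oosp1 and Oosp3, an arrangement found for 18.1% of all genes tested, and lower for Zp3, found for 18.4%. The directions of these 4 were the same under every scaling tried.

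**Figure D2:**
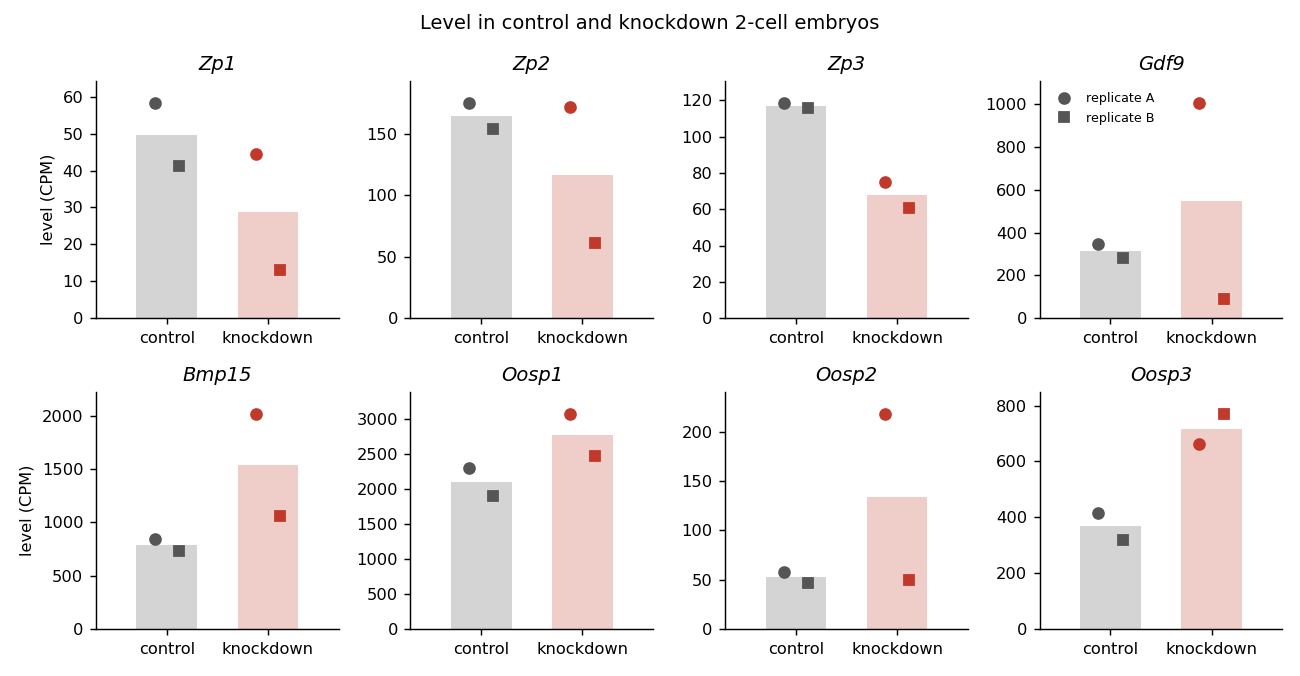
Level (CPM, vertical axis from 0, a separate scale for each gene) of the 8 genes in control (grey) and knockdown (red) libraries; circles are replicate A, squares replicate B and bars the mean of the 2. Zp3 sits lower and Bmp15, Oosp1 and Oosp3 sit higher in both knockdown libraries, and the knockdown points of Gdf9 lie at 1005 and 91.2 CPM, on either side of the controls.

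The ratio of 2 genes' reads within a library does not change with the library's scaling. It carries the lengths of both transcripts, so only its differences between libraries were read. Gdf9 reads were 0.408 and 0.389 of Bmp15 reads in controls A and B, 0.498 in knockdown A and 0.0864 in knockdown B. The ratio of Gdf9 to Bmp15, partners in follicle growth, was thus somewhat above both controls in knockdown A and far below them in knockdown B. Oosp3 reads were 0.181 and 0.168 of Oosp1 reads in the controls and 0.215 and 0.311 in the knockdown libraries, with no overlap. Zp2 reads were 1.47 and 1.33 times Zp3 reads in the controls, 2.29 times in knockdown A and 1.01 times in knockdown B. Zp1 reads were 0.333 and 0.267 of Zp2 reads in the controls and 0.258 and 0.214 in the knockdown libraries, also without overlap. These were 2 of 6 pairs computed, with no test. For such a separation of 2 libraries from 2, an exact permutation test cannot give a p below 0.333. No share over other gene pairs was computed. In the other 4 the groups overlapped, among them Zp1 to Zp3 (0.491 and 0.355 against 0.591 and 0.215) and Oosp2 to Oosp1 (0.0249 and 0.0248 against 0.0710 and 0.01996).

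**Figure D3:**
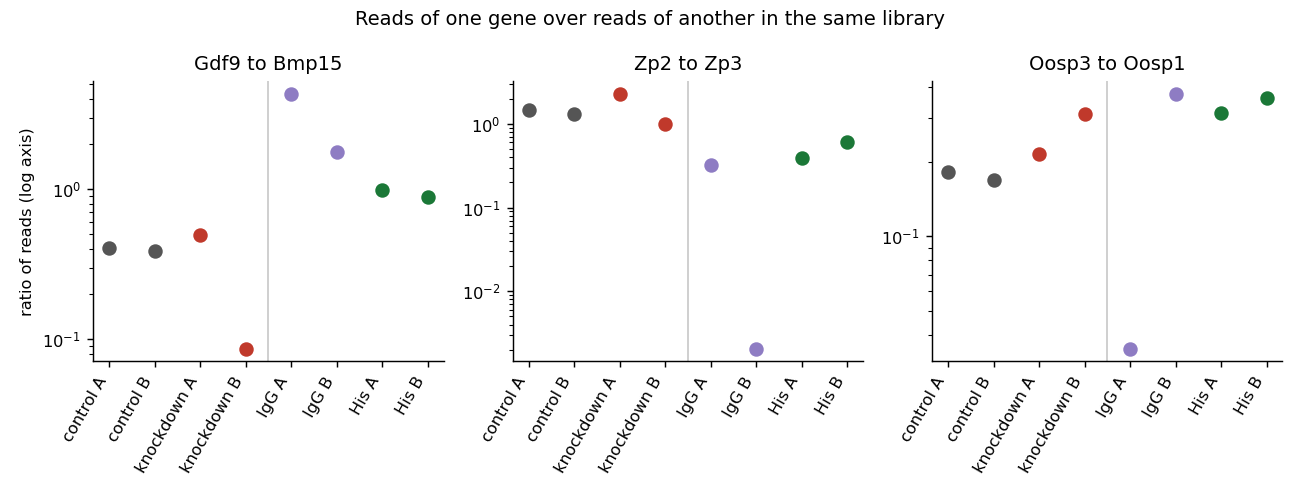
Reads of one gene divided by reads of another in the same library (log vertical axis) for 3 pairs, by library; the grey line separates the knockdown table from the pulldowns. The Gdf9 to Bmp15 ratio is 0.389 to 0.498 in all but 1 of the knockdown-table libraries, and 0.0864 in knockdown B.

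The difference between the knockdown replicates extended to most of the 8 genes. Knockdown B was below knockdown A for 7 of the 8, with a median log2 difference of -1.21 against -0.30 over all genes tested, and control B was below control A for all 8, with a median of -0.28 against 0.06. The median SD between replicates on the log2 scale was 0.85 for the 8 genes in the knockdown group, where it was 0.49 over all genes, and 0.20 in the controls, where it was 0.24.

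Other oocyte transcripts also differed between the knockdown replicates. Of 30 other maternal mRNAs, 28 were lower in knockdown B than in A (median log2 difference -1.27), as were 62.5% of all genes tested. For 17 of the 30, knockdown A was above both controls and knockdown B below both, against 19.1% of all genes. H1f8, the oocyte linker histone, was at 176 and 195 CPM in the controls, 1299 CPM in knockdown A and 53.8 CPM in knockdown B. Ooep, a subunit of the subcortical maternal complex, was at 134 and 72.7 CPM in the controls and at 949 and 49.5 CPM in knockdowns A and B. These 2 were chosen after their values were seen. Of the 2 maternal mRNAs with the highest mean level, Omt2b was at 9827 and 12804 CPM and Tcl1 at 11317 and 4751 CPM in knockdowns A and B, so Omt2b was higher in B and Tcl1 lower. Another list held partners and relatives of the egg coat genes, and also oocyte transcription factors such as Nobox. Of its 11 tested genes, 10 were lower in knockdown B, with a median log2 difference of -1.35. Among them, Nobox was at 62.6 and 52.2 CPM in the controls and at 174 and 21.3 CPM in knockdowns A and B. Cd9, an egg membrane protein needed for sperm fusion, was at 96.7 and 123 CPM in the controls and at 127 and 148 CPM in the knockdown libraries. None of these lists held a gene that passed in limma or edgeR.

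The other lists differed less in the median between the knockdown replicates, and the difference between lists was not tested. For the 20 genes of maternal mRNA decay the median log2 difference of B from A was -0.18, and for the 16 tested genes of BMP and GDF9 signalling it was -0.09. Btg4, the adaptor that brings the deadenylase to maternal mRNAs, was at 2721 and 3198 CPM in the controls and at 6482 and 2911 CPM in knockdowns A and B. Cnot7, a deadenylase subunit, was at 867 and 968 CPM and at 991 and 1221 CPM. The receptor gene Bmpr2 was at 123 and 145 CPM in the controls and at 108 and 171 CPM in the knockdown libraries, and Smad2, which acts downstream of GDF9, was at 49.3 and 86.1 CPM and at 105 and 132 CPM. Of the 12 tested 2-cell markers, 10 had a lower mean in knockdown embryos, as did 48.7% of all genes tested. Both knockdown libraries lay below both controls for 6 of the 12, against 18.4% of all genes, and none passed in limma. Their median log2 difference of B from A was -0.29. The 5 tested cumulus and granulosa markers had a median log2 difference of B from A of 0.36, in the other direction, and their median SD between the knockdown replicates was 0.81. Knockdown A held 27902514 reads and knockdown B 18173916, and the part of depth in these differences was not tested.

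**Figure D4:**
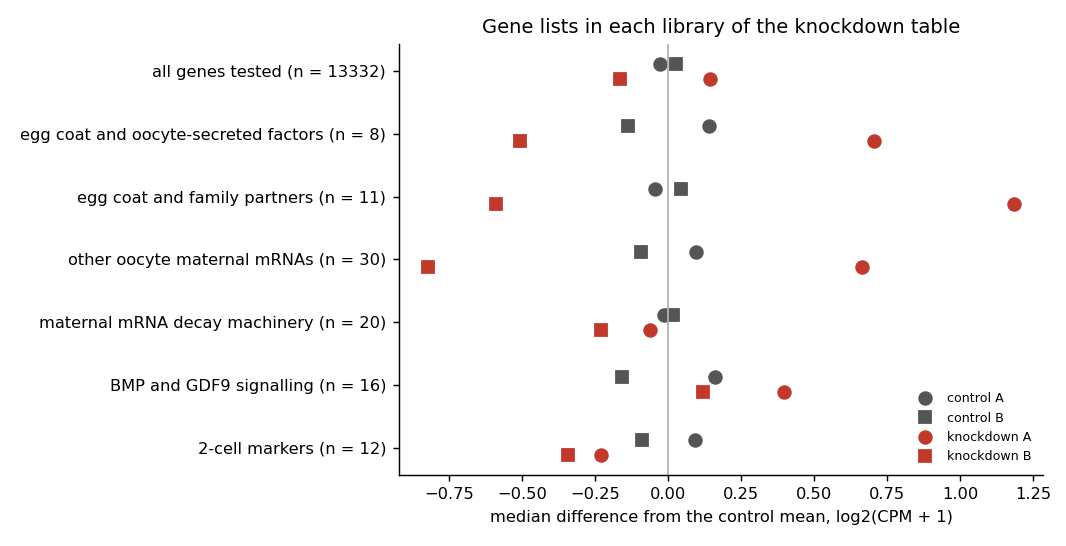
Median difference of each library from the control mean on the log2(CPM + 1) scale (horizontal axis) for gene lists (rows, with the number of genes tested); grey points are controls, red points knockdown libraries, circles replicate A and squares replicate B. Knockdown A lies at 0.71 and knockdown B at -0.51 for the egg coat and oocyte-secreted factor genes, on either side of the controls.

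In the pulldowns, where IgG shows what the beads retain without the tag antibody, 7 of the 8 genes had a higher mean with His than with IgG on the deposited scale and Zp3 a lower one; after median rescaling over all tested genes 6 of those 7 turned lower, and Zp2 also did so with DESeq2. Limma called 3 of the 8 higher with His (35.7% of all 11232 genes tested) and 0 lower (0.917%). The 3 were Zp1, which entered the test only through the His libraries, Gdf9 and Oosp1. For 3903 of the 4008 genes behind that 35.7%, the IgG libraries alone likewise fell short of the filter. Those genes were tested only because of their level with His, so the filter favoured calls in that direction. Groups did not overlap for 6 genes: Zp1, Gdf9, Bmp15, Oosp1 and Oosp3 were higher with His, as were 54.1% of all genes, and Zp3 was lower, as were 9.06%. DESeq2 on the recovered reads called 4, namely Zp1, Bmp15 and Oosp1 higher and Zp3 lower, where it called 49.1% of all genes in either direction, and edgeR called 0 of the 8, 0 of all genes, and had 4592 genes with an unadjusted p under 0.05.

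All genes together shifted between these groups, so single fold changes are read against that shift. The median log2 fold change over all genes was 2.01 as deposited and 2.30 over the 8 genes. It was 1.64 when libraries were rescaled to the median of genes above 0 in all 4, 1.56 with edgeR, 1.30 with DESeq2 and -1.92 when they were rescaled to the median of every tested gene. The last of these rests on genes with few or no reads, since the median tested gene lay at 0.42 and 0.51 log2 units in IgG A and B and at 4.39 and 4.40 in the His libraries. The cumulus and granulosa markers summed to 54.8 and 64.3 CPM with His and to 6.92 and 0 CPM with IgG. Amhr2 alone was at 48.1 and 39.7 CPM with His and at 5.91 and 0 CPM with IgG, most of each sum above 0. Of the 14 listed, 7 to 9 were at 0 with His and 12 to 14 with IgG. The part of these markers in the results was not tested.

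Oosp1 was at 3167 and 3148 CPM with His and at 1068 and 1109 CPM with IgG in replicates A and B. The means were 3157 ± 13.3 and 1088 ± 28.7 CPM (SD, n = 2 each), a 2.90-fold difference, and Oosp1 had the smallest p of all genes tested. Its log2 fold change was 1.54 (SE 0.05, adjusted p 0.00997 by limma), which is below the median of all genes. After rescaling to the median of genes above 0 in all 4 libraries it was 1.17 (adjusted p 0.0486), and after rescaling to the median of every tested gene it was -2.39 (0.00331). Without His A or His B, where the spread rests on IgG, Oosp1 did not pass (adjusted p by limma 0.565 and 0.635).

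Gdf9 was at 2281 and 2280 CPM with His and at 1320 and 1538 CPM with IgG. The difference was 1.60-fold, with a log2 fold change of 0.68 (SE 0.10, adjusted p 0.0164 by limma) on the deposited scale and of -3.25 (0.00331) after rescaling to the median of every tested gene. It did not pass with edgeR (0.0876), with DESeq2 (0.0856), after rescaling to genes above 0 in all 4 libraries (0.32, adjusted p 0.433), or without His A or His B (1.00 for each). Gdf9 was thus recovered at a high level on IgG beads in both replicates. Bmp15 was at 2323 and 2584 CPM with His and at 305 and 869 CPM with IgG. Its groups did not overlap, and its log2 fold change of 2.25 (SE 0.59, adjusted p 0.0649 by limma) passed with DESeq2 (0.000222), with the replicate block (0.0352), after rescaling to genes above 0 in all 4 libraries (1.89, adjusted p 0.0464) and without either IgG library (0.000197 without A, 4.0e-05 without B), where the spread rests on the His libraries alone. It did not pass with edgeR (0.0547), without His A (0.255) or without His B (0.635). It was -1.68 after rescaling to the median of every tested gene. Gdf9 reads were 0.982 and 0.882 of Bmp15 reads in His A and B and 4.32 and 1.77 times Bmp15 reads in IgG A and B, a difference that no scaling of the libraries moves.

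Zp1 had 0 reads in both IgG libraries and was at 92.2 and 133 CPM with His (771 and 1056 reads), at least 197-fold higher than the floor of 3 reads per IgG library. Having passed the filter through His alone, it had to differ; its adjusted p was 0.00997 by limma, 0.0547 with edgeR and 0.0730 after rescaling to the median of every tested gene. Of all genes tested, 28.2% had 0 reads in both IgG libraries and 59% in at least 1. Zp2 was at 47.6 and 80.8 CPM with His, at 105 CPM in IgG A and at 2 reads in IgG B. Its groups overlapped, and its log2 fold change of 2.36 (SE 2.54, adjusted p 0.595 by limma) was -0.75 without IgG B and 5.47 without IgG A (adjusted p 0.123 and 0.000619). Its IgG libraries alone fell short of the filter, and without IgG A, where 2 IgG reads remain, it was tested only because of its level with His.

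Zp3 was the zona gene with the higher mean on IgG beads. It was at 122 and 131 CPM with His and at 328 and 208 CPM with IgG, a log2 fold change of -1.04 (SE 0.53, adjusted p 0.252 by limma). It was negative in every scaling tried, and passed with DESeq2 (-1.47, adjusted p 0.0487) and after rescaling to the median of every tested gene (-4.97, 0.0237). The fold change was -0.71 without IgG A and -1.37 without IgG B. Zp3 did not pass with edgeR (0.388), with the replicate block (0.558), after rescaling to genes above 0 in all 4 libraries (0.346), or without His A or His B (1.00 for each). Zp2 reads were 0.391 and 0.615 of Zp3 reads with His, 0.321 in IgG A and 0.00205 in IgG B.

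Oosp2 and Oosp3 differed between the IgG replicates. Oosp2 was at 257 and 263 CPM with His, at 0 reads in IgG A and at 382 CPM in IgG B, so its groups overlapped (log2 fold change 3.74, SE 3.38, adjusted p 0.523 by limma), and the fold change was -0.55 without IgG A (adjusted p 0.0432) and 8.03 without IgG B (4.2e-05), where the remaining IgG library had no read and Oosp2 was tested only because of its level with His. Oosp3 was at 994 and 1138 CPM with His and at 37.5 and 417 CPM with IgG, without overlap. On the deposited scale its log2 fold change was 3.07 (SE 1.35, adjusted p 0.195 by limma). It was -0.86 after rescaling to the median of every tested gene, 1.35 without IgG A and 4.79 without IgG B. Oosp3 passed in no alternative run that kept every library. The median SD of the 8 genes between replicates was 0.76 log2 units with IgG and 0.09 with His, against 0.69 and 0.35 over all genes.

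**Figure D5:**
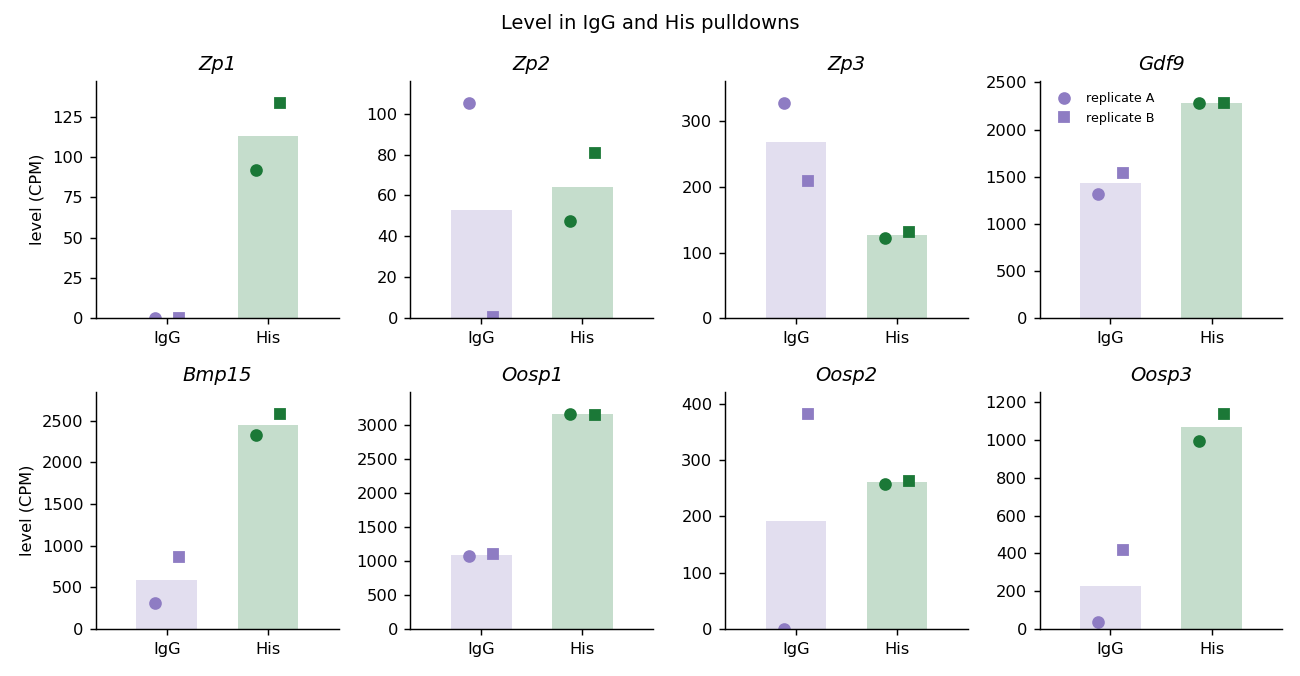
Level (CPM, vertical axis from 0, a separate scale for each gene) of the 8 genes in IgG (purple) and His (green) pulldowns; circles are replicate A, squares replicate B and bars the mean of the 2. His replicates lie close together for genes other than Zp1 and Zp2, while Zp2, Bmp15, Oosp2 and Oosp3 differ between the IgG replicates; on this deposited scale Zp3 is lower with His, and Gdf9, Bmp15, Oosp1 and Oosp3 are higher, which turned after median rescaling over all tested genes.

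Among the 30 other maternal mRNAs, limma called 10 higher and 1 lower with His, against 35.7% and 0.917% of all genes tested, and the median log2 fold change was 1.14 against 2.01. The share of all genes rests largely on the filter, since the IgG libraries alone fell short of it for 3903 of the 4008 genes called higher. The 2 shares are thus not alike, and the difference between them was not tested. In 4 of the 10 the IgG libraries alone fell short of the filter of 1 CPM in 2 libraries, so these 4 were tested only because they were high with His. Tcl1, a kinase co-activator, was at 16520 and 16838 CPM with His and at 15513 and 11843 CPM with IgG. Bcl2l10, an oocyte BCL2-family gene, was at 9290 and 9493 CPM and at 8162 and 7716 CPM. Dppa3, a maternal protein that protects DNA methylation, was at 4547 and 4343 CPM with His and at 937 and 1087 CPM with IgG (adjusted p 0.00997 by limma). Of the 10 tested genes on the list of egg coat partners and oocyte transcription factors, 5 were called higher. These were Lhx8, Fetub, Plac1, Pcsk6 and Zp4-ps. All 5 met the filter only through the His libraries, so their calls were set by the filter and say nothing of the list. Fetub, an inhibitor of the protease that cleaves ZP2, was at 72.9 and 74.9 CPM with His and had 0 reads in both IgG libraries. Astl, which encodes that protease, was at 320 and 200 CPM with His and at 1501 and 72.7 CPM with IgG and did not pass. Of the 16 tested signalling genes 6 were called higher, and all 6 met the filter only with the help of the His libraries. Bmp6, a BMP ligand made by oocytes, was at 131 and 184 CPM with His and at 0 and 1.07 CPM with IgG. Of the 18 tested decay genes none was called higher and Cnot3, a deadenylase subunit, was called lower, at 189.5 and 209.8 CPM with His and 1005 and 1382 CPM with IgG. These calls are on the deposited scale, on which 7599 genes passed without IgG A, 7679 without IgG B and 6 without either His library.

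Across the 8 libraries of both tables, with log2(CPM + 1) centred within each table, the genes whose pattern was most like the mean of the 8 genes were Clcc1 (Pearson's r 0.997), Ruvbl2 (0.994), Kpna7 (0.993), Acp6 (0.991) and Ccnb2 (0.991), out of 5314 genes with a mean of at least 10 CPM in each table. Clcc1 was at 45.5 and 43.0 CPM in the controls, 108 and 26.4 CPM in knockdowns A and B, 35.7 and 54.7 CPM with His and 0.169 and 2.56 CPM with IgG. The single closest gene was Hba-a1 for Zp1, Fars2 for Zp2, Ppp1r14b for Zp3, Elof1 for Gdf9, Klhdc2 for Bmp15, Slco1a5 for Oosp1, Mmadhc for Oosp2 and Rab2a for Oosp3, with r from 0.970 to 1.00. These values come from few libraries and share depth and normalization. Among the 8 genes, r was highest between Bmp15 and Oosp3 (0.932) and lowest between Zp3 and Oosp3 (-0.896).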

How the data were processed

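RNA of mouse 2-cell embryos was measured by Smart-seq2 without molecular identifiers, per the labels' protocols, as 150 bp paired-end reads. The deposited values are CPM made by the authors; the submitters' processing notes name Trim Galore 0.6.7, FastQC, HISAT2 2.2.1, featureCounts 2.0.1, edgeR and GRCm39, and the annotation, strand setting and gene filter are not given in the sources used here. All values (100%, tolerance 0.05 read) were whole multiples of 1 read, so reads were recovered. Of 12 samples 8 were used; 4 value columns could not be matched to a sample by name and were not used, so 3 of 5 planned comparisons were not run. The 2 tables were normalized separately.

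Limma 3.58.1 (R 4.3.3, mean-variance trend, only the groups compared, genes at 1 CPM or more in 2 libraries) was run on log2(CPM + 1), with an adjusted p threshold of 0.05. Alternatives were edgeR 4.0.16, DESeq2 1.42.0, a pseudocount of 0.1, other filters and scalings, the replicate block and leaving out each library. Scripts were tested on simulated data. The members and lists were chosen with earlier results of these data known. Named genes are the 8 members, genes of the lists that passed or the 2 with the highest mean CPM per list, and the genes most like the members; Uqcrq, Astl and, in the knockdown comparison, H1f8 and Ooep were named after their values were seen.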

Additional observations from a re-analysis of the deposited data

How the results depend on the processing

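In knockdown against control embryos, the count of 0 genes called became 2 with the replicate block and 15 with DESeq2 on recovered reads, and ranged from 0 to 1894 when a library was left out. In His against IgG, 4111 genes were called. There were 2356 when a mean of 5 CPM was required, 2213 after median rescaling, 2142 after median rescaling over genes above 0 in all 4 libraries (added after seeing the data), 0 with edgeR (4592 at an unadjusted p under 0.05; smallest adjusted p 0.0547), and 6 to 7679 when a library was left out (6 without either His library, where Zp1 no longer passed the filter and gave no value). With median rescaling 0.0452% of those calls were higher with His, against 97.5% as deposited and 86.5% with DESeq2. The replicate letters were not shown to pair the libraries: deviations of same-letter libraries correlated at 0.146 in the knockdown table and at -0.01 in the pulldowns. With the replicate block no member passed in the knockdown comparison and 4 passed in the pulldowns, Bmp15 being added (adjusted p 0.0352), and no other member's call changed.

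Members that turned were, in the knockdown comparison, Gdf9 with edgeR (0.71) and DESeq2 (0.69), and, leaving out a library, Gdf9 (-1.77 to 1.68), Oosp2 (-0.073 to 2.05) and Zp2 (-1.41 to 0.068). In the pulldowns, median rescaling turned Zp2 (-1.57), Gdf9 (-3.25), Bmp15 (-1.68), Oosp1 (-2.39), Oosp2 (-0.19) and Oosp3 (-0.86); its shift is set by tested genes that have few or no reads in IgG. DESeq2 turned Zp2 (-0.26), and leaving out a library turned Oosp2 (-0.55 to 8.03) and Zp2 (-0.75 to 5.47). Otherwise the cause was not tested. Zp3, Bmp15, Oosp1 and Oosp3 in the knockdown comparison and Zp1 and Zp3 in both comparisons kept their direction under every alternative run. Zp1, Zp2 and Oosp2 had 0 to 2 reads in at least 1 IgG library, under the floor of 3 reads, and their fold changes there depend on the pseudocount.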
